A study of Mus musculus with 12 samples.

Results

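The 57 genes described here encode transcription factors of development that lie outside the Hox clusters. The selection rule names them by family and uses no methylation value, but the members were chosen with earlier results of these data known. They comprise 8 paired box (Pax), 5 SRY-box (Sox), 5 GATA zinc finger, 7 T-box (Tbx), 5 LIM homeobox, 2 sine oculis homeobox (Six2, Six3), 4 NK homeobox, 5 forkhead (Fox), 2 Iroquois (Irx), 2 TALE (Meis), 4 muscle segment or distal-less (Msx, Dlx), 3 spalt (Sall), 3 paired-like (Otx2, Gsc, Pitx1) and 2 Runt-related genes, with Isl1 counted among the LIM homeobox genes. A promoter was the window from 1500 bp before to 500 bp after the start site. It was measured where 3 or more of its cytosines were listed in all 12 libraries. This held for 45 of the 57 members, among 14150 autosomal promoters of the whole series, and for the gene bodies of all 57 members, among 16042 gene bodies. The 12 members without a measured promoter were Pax1, Pax8, Sox1, Sox10, Tbx15, Lhx3, Lhx9, Six3, Foxa1, Dlx5, Runx1 and Runx3.

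DNA methylation had been profiled by reduced representation bisulfite sequencing (RRBS), which reads mainly CpG-rich restriction fragments, in 2 immortalized mouse embryonic fibroblast (iMEF) lines. The experimental line carries R26M2rtTA/+;TetOcre;Sdhcfl/fl, and the control line carries R26M2rtTA/+;TetOcre;Sdhcfl/wt. Both therefore hold the doxycycline-dependent activator, the tetracycline-operated Cre and at least 1 floxed Sdhc allele, and both received doxycycline at 1 µg/mL. Sdhc encodes a membrane subunit of succinate dehydrogenase, and Cre removes all functional copies only in the experimental line. Each line gave 1 library on day 0, before doxycycline, and 1 on each of days 5, 9, 12, 16 and 20. As 1 line stands for each genotype, the genotype and the line cannot be told apart, and every SD below is a spread over harvests of a single line. All 6 libraries of the control line were compared with the 5 post-doxycycline libraries of the experimental line (days 5 to 20), and experimental day 0 stayed outside that comparison. This grouping follows the study's own.

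Developmental transcription factors switch on lineage programmes in the embryo: Sox9 in cartilage, Gata6 in endoderm and heart, Six2 in kidney progenitors, Pax7 in muscle, Nkx2-1 in lung and thyroid. In cells of another lineage most of them are silent, and their CpG-rich promoters are typically kept free of DNA methylation and held by Polycomb proteins. The unmethylated zone of such genes often extends well past the promoter into the gene. A beta value is the share of reads in which a cytosine was methylated, from 0 to 1. In a mixed population, a change in every cell and a change in the proportion of methylated cells cannot be told apart.

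The libraries listed between 932307 cytosines, in the control library of day 12, and 1716381, in that of control day 5, and 606488 autosomal cytosines were listed in all 12. Read counts per cytosine were not used here, so the depth behind a beta value is unknown, and precision is read only from the spread between libraries. The mean beta value over the 45 member promoters was 0.171 to 0.222 in the control libraries, highest on day 12, and 0.205 to 0.232 in the experimental libraries of days 5 to 20. Over the 57 member bodies it was 0.335 to 0.347 and 0.329 to 0.347. For member promoters the ranges of the lines overlapped only through control day 12, as the next highest control library, day 9, stood at 0.190. For member bodies the ranges overlapped, while single genes parted in both directions. Over all 14150 promoters the means were 0.153 to 0.159 in the control and 0.161 to 0.168 in the experimental libraries of days 5 to 20. Over all 16042 gene bodies they were 0.586 to 0.594 and 0.596 to 0.610. Neither of these pairs of ranges overlapped.

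Methylation was low in the control line around the start sites of the members and higher away from them. Over the 142 member cytosines in the 250 bp before the start site (20 genes), the mean beta value was 0.0453 ± 0.00939 (SD over 6 libraries) in the control line and 0.0637 ± 0.0185 (SD over 5 libraries) in the experimental line. From 1000 to 2000 bp after the start the control mean was 0.310, and from 2000 to 5000 bp it was 0.364. For the other genes of the series the mean rose further with distance, to 0.536 at 2000 to 5000 bp and 0.663 at 5000 to 20000 bp, where the members stood at 0.354. The bodies of the developmental factors were thus the less methylated ones at these distances, with medians over genes of 0.293 for the 57 members and 0.656 for all gene bodies in the control line. Promoter windows showed the opposite order, with a median of 0.127 for the members and 0.0218 for all promoters. These are descriptions of the 2 sets, and cytosines shared by overlapping genes were counted for each gene.

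The absolute difference between the lines, averaged over cytosines, was smallest at the start site. For the members it was 0.0635 in the 250 bp before the start, 0.0966 at 500 to 1000 bp before it and 0.182 at 2000 to 5000 bp after it. Other genes measured 0.0292, 0.0584 and 0.103 in these bins. Between 2000 and 5000 bp, 20.1% of the 537 member cytosines were higher by over 0.2 in the experimental line and 14.5% were lower by over 0.2, where other genes had 9.44% and 7.23%. The mean over members moved little, from 0.364 to 0.387.

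**Figure D1:**
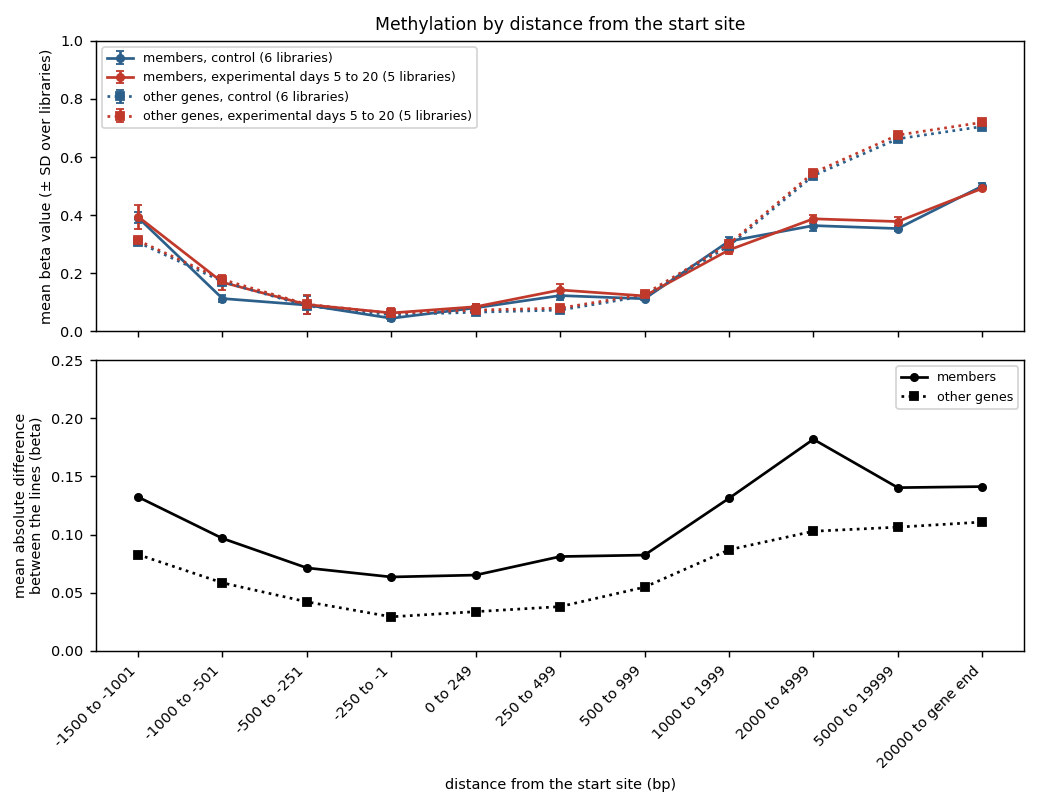
Mean beta value (upper panel, error bars SD over libraries) and mean absolute difference between the lines (lower panel) of cytosines by distance from the start site in bp, for the 57 members and for other genes. Members fall to 0.0453 in the control line before the start and stay under other genes from 2000 bp onward, while their difference between the lines peaks at 0.182 between 2000 and 5000 bp.

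The start sites of several members are shown here by the 250 bases before them. They belong to members that differed between the lines in the promoter or gene body, and were picked partly for their low methylation. They therefore do not stand for all called members. Sequences come from RefSeq on GRCm38.p6 (mm10 in the nomenclature of the files), 5′ to 3′ on the strand of the gene and ending at the base before the start. Capitals mark CpGs with at least 1 cytosine listed in all 12 libraries. The first 3 belong to called promoters, the next 2 to called gene bodies, and the last to the downstream start site of Runx3, which lies inside the gene.

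Foxc1: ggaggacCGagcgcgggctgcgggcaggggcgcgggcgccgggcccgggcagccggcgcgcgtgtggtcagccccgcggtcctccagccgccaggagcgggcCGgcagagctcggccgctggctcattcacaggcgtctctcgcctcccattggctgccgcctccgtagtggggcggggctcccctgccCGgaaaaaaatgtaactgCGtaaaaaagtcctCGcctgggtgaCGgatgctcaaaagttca
Meis2: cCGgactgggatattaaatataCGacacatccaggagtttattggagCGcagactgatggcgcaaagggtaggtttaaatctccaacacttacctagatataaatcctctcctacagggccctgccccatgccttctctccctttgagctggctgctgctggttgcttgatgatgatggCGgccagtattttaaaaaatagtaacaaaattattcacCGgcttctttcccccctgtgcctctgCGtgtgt
Sox2: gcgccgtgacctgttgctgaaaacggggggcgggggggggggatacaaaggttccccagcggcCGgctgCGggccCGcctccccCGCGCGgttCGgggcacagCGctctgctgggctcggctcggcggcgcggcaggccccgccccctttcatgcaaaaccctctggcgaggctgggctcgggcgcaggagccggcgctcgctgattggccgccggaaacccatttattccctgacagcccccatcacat
Msx1: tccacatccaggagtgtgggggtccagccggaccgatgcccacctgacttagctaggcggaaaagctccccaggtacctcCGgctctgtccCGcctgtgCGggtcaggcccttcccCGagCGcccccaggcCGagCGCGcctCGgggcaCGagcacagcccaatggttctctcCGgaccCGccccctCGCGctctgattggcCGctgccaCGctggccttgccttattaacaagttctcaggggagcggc
Six2: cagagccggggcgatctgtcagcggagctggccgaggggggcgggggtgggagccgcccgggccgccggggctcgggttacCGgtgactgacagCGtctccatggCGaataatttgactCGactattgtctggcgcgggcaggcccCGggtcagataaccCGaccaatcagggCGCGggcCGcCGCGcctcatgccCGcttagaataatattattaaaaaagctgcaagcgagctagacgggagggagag
Runx3 downstream start: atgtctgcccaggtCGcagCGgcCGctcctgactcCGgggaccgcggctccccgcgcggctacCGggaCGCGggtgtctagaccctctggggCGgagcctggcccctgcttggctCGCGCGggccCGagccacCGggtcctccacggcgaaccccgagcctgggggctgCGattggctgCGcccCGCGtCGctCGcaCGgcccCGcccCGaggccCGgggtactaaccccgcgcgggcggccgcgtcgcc

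The Foxc1 stretch lies at chr13:31806396-31806645 (+ strand) and holds 29 CpGs, and its 7 listed cytosines averaged 0.000711 in the control line and 0 in the experimental line. The Meis2 stretch, at chr2:116064620-116064869 (- strand), holds only 7 CpGs. Its 7 listed cytosines averaged 0.00483 in the control line and 0.109 in the experimental line, and 1 of them reached 0.446. For Sox2, at chr3:34649745-34649994 (+ strand) with 27 CpGs, the means over 8 cytosines were 0.154 and 0.0455. Msx1, at chr5:37824586-37824835 (- strand), had 0.0186 and 0.00797 over 17 cytosines, and Six2, at chr17:85688255-85688504 (- strand), had 0.0276 and 0.0221 over 12. The downstream start of Runx3, at chr4:135152295-135152544 (+ strand) with 38 CpGs, had 0.0407 and 0.0599 over 24 cytosines. All 6 are under 0.2 in both lines, and low methylation was a ground for printing them. Sox2 was the most methylated of them in the control line and Meis2 in the experimental line. At Sox2 the control libraries ranged from 0 to 0.5. The stretch of Pax1, whose gene body was called, is not printed. It averaged 0.217 in the control and 0.292 in the experimental line over 2 listed cytosines.

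Over the 56 start sites of 40 members for which RefSeq gave a sequence, the 250 bases before the start held a median of 15 CpGs, against 6 over 32851 such stretches of all genes. The GC box GGGCGG, searched on both strands and itself holding a CpG, was present in 31 of the 56 (55.4%) and in 32.7% of all stretches. Of 29 start sites with 3 or more listed cytosines within 250 bp on either side, 25 had a mean under 0.2 in both lines. The others were the downstream start of Pax6 (0.471 in the control and 0.413 in the experimental line), Tbx1 (0.478 and 0.363), the downstream start of Lhx3 (0.103 and 0.222) and Nkx2-1 (0.176 and 0.218). Of the 45 promoter windows, 23 also overlap another RefSeq gene, among them Sox2ot at Sox2, Tbx3os1 at Tbx3, Lhx1os at Lhx1 and Fendrr at Foxf1, so those cytosines belong to both.

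**Figure D2:**
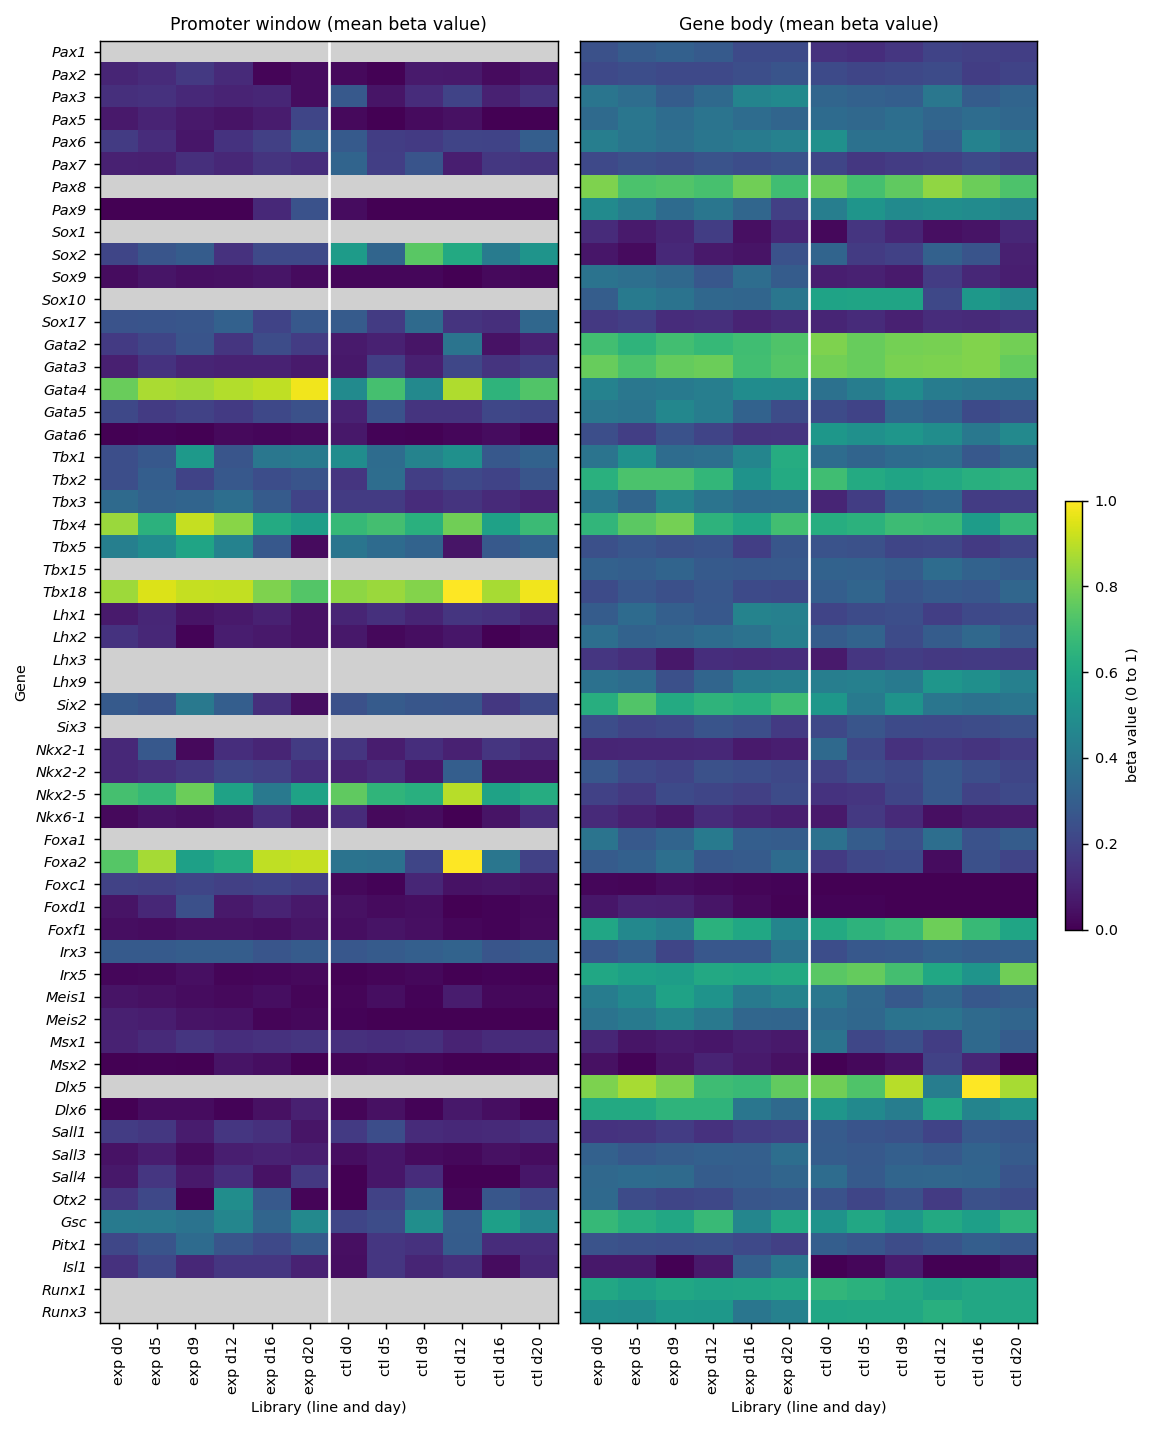
Mean beta value (colour, 0 to 1) of the promoter window (left) and gene body (right) of each of the 57 members (rows, by family) in each of the 12 libraries (columns, experimental to the left of the white line), with grey for promoters that were not measured. Most promoter rows are dark, Gata4, Tbx4, Tbx18, Nkx2-5 and Foxa2 are bright, and the bodies of Gata6, Msx1 and Sox9 change colour at the line between the 2 lines.

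Promoter methylation was compared first. Of the 45 member promoters, Meis2, Foxc1 and Tbx3 were higher and Sox2 was lower in the experimental line (limma on M-values, the log2 ratio of methylated to unmethylated share with 0.01 added to each, Benjamini-Hochberg adjusted p under 0.05 over all 14150 promoters). These 4 are 8.89% of the members, and over all promoters 2.48% passed in either direction, 1.73% as higher and 0.749% as lower. The libraries of the lines did not overlap for 6 member promoters that were higher and 1 that was lower in the experimental line, where all promoters gave 3.11% and 1.15%. An unadjusted p under 0.05 was reached by 13 member promoters and by 17.9% of all promoters. With a window of only 500 bp on each side of the start, Meis2 alone of the 4 kept its call, and Meis2 and Sox2 lost theirs when beta values were fitted in place of M-values. Members had a median of 17 cytosines per promoter and all promoters had 13. The median difference was 0.0241 over the members and 0.00245 over all promoters, and the median absolute difference was 0.0368 and 0.00930.

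Foxc1, a forkhead factor of mesenchyme, eye and vessel development on chromosome 13, had promoter beta values of 0.191, 0.207, 0.190, 0.203 and 0.183 on days 5, 9, 12, 16 and 20 in the experimental line, and 0.197 on day 0. The control libraries lay between 0.0107 and 0.108 with a median of 0.0467. Every experimental library was above every control library, and the means were 0.195 ± 0.0101 (SD, n = 5) and 0.0489 ± 0.0338 (SD, n = 6; M difference 2.24 ± 0.40 (SE), adjusted p = 0.0191 by limma). Most of the difference lay at the outer edge of the measured cytosines and not at the start site printed above. The 6 cytosines from 584 to 503 bp before the start averaged 0.712 ± 0.107 in the experimental and 0.178 ± 0.138 in the control line, and the other 20 averaged 0.0398 ± 0.0195 and 0.0104 ± 0.00884.

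Meis2, a TALE homeodomain cofactor of Hox and Pbx proteins on chromosome 2, measured 0.0819, 0.0533, 0.0505, 0.0127 and 0.0218 on days 5 to 20 of the experimental line and 0.0873 on day 0. The control libraries lay between 0 and 0.00821 with a median of 0.000302, so the promoter was almost bare there. All experimental values were above the control values, at 0.0440 ± 0.0276 (SD, n = 5) against 0.00176 ± 0.00323 (SD, n = 6; M difference 2.13 ± 0.36 (SE), adjusted p = 0.0168 by limma). Within the printed stretch, the cytosine at position 116064822, 203 bp before the start, passed on its own, with 0.446 ± 0.226 against 0.0106 ± 0.0201 (SD; adjusted p = 0.0141 by limma over 508351 cytosines).

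Tbx3, a T-box repressor of limb and mammary development on chromosome 5, had 0.312, 0.322, 0.363, 0.286 and 0.201 on days 5 to 20 and 0.346 on day 0 in the experimental line. The control libraries lay between 0.0946 and 0.174 with a median of 0.139. The groups did not overlap, with 0.297 ± 0.0602 (SD, n = 5) and 0.139 ± 0.0315 (SD, n = 6; M difference 1.33 ± 0.24 (SE), adjusted p = 0.0212 by limma). At 526 to 623 bp before the start, a run of 6 cytosines averaged 0.520 ± 0.182 in the experimental and 0.278 ± 0.0632 in the control line. The call was lost without experimental day 5 or day 12 (highest adjusted p = 0.0523 by limma with 1 library left out).

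Sox2, a pluripotency and neural progenitor factor on chromosome 3, was the member promoter with the largest decrease. Its experimental libraries measured 0.265, 0.291, 0.144, 0.222 and 0.222 on days 5 to 20 and 0.208 on day 0, whereas the control libraries lay between 0.326 and 0.746 with a median of 0.532. The lowest control library was above the highest experimental one, and the means were 0.229 ± 0.0558 (SD, n = 5) and 0.526 ± 0.147 (SD, n = 6; M difference -1.90 ± 0.42 (SE), adjusted p = 0.0430 by limma). The run of 10 cytosines from 1091 to 1165 bp before the start held most of it, at 0.376 ± 0.105 in the experimental and 0.824 ± 0.157 in the control line. A single cytosine of the run, position 34648847, passed alone (0.0643 against 0.839, adjusted p = 0.0405 by limma). The promoter call held in only 1 of 11 fits with a library left out, that without control day 5, and the adjusted p by limma ranged from 0.0267 to 0.102.

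**Figure D3:**
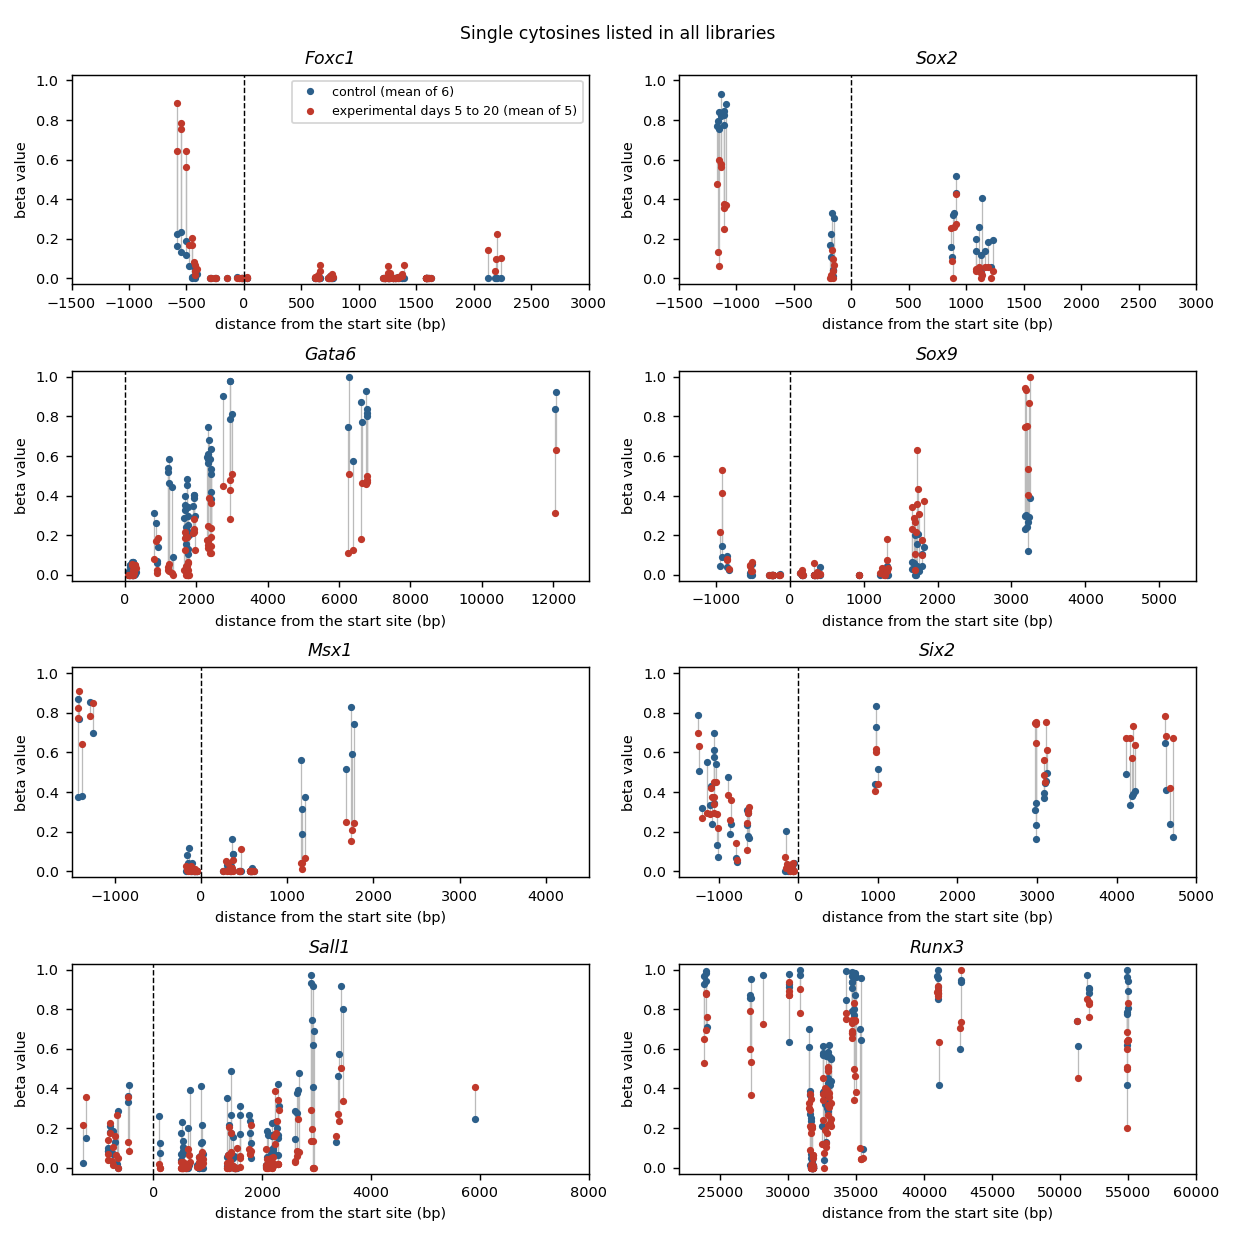
Mean beta value of each cytosine listed in all libraries against its distance from the start site in bp (dashed line), for 8 members called in the promoter or gene body, with grey lines joining control (mean of 6) and experimental (mean of 5) values. Foxc1, Msx1, Six2 and Sox9 lie near 0 at the start in both lines and part further out, and in the Runx3 panel the low zone is at the downstream start.

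Another 5 member promoters had an adjusted p between the threshold and 0.1. Foxd1, a forkhead factor of kidney stroma, measured 0.111, 0.243, 0.0699, 0.100 and 0.0700 on days 5 to 20, with control libraries between 0 and 0.0455 with a median of 0.0263 (adjusted p = 0.0555 by limma). All experimental libraries were above the control ones, and that of day 9 stood apart from the other experimental libraries. Pax5, a B cell factor, had 0.101 ± 0.0624 (SD, n = 5) in the experimental and 0.0166 ± 0.0195 (SD, n = 6) in the control line (adjusted p = 0.0600 by limma). In Sox9 the values were 0.0462 ± 0.0119 and 0.0157 ± 0.00830 (adjusted p = 0.0719 by limma). The libraries of the lines did not overlap in Pax5 and Sox9 either. Gata4, a heart and endoderm factor, measured 0.872, 0.863, 0.884, 0.906 and 0.978 over 3 cytosines, with control libraries between 0.472 and 0.881 with a median of 0.677, of which that of day 12 was the highest and overlapped (adjusted p = 0.0827 by limma). Lhx1, a LIM factor of kidney and brain, was lower at 0.106, 0.0534, 0.0672, 0.0918 and 0.0497, with control libraries between 0.102 and 0.154 with a median of 0.123, and its groups overlapped (adjusted p = 0.0990 by limma). Without the control day 12 library, which listed the fewest cytosines, 8 member promoters passed as higher by limma: Meis2, Foxc1, Tbx3, Foxa2, Gata2, Gata4, Pax5 and Sox9. Sox2 did not pass in that fit.

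By size alone, the 6 largest increases in mean promoter beta value were those of Foxa2, Gata4, Tbx3, Foxc1, Pitx1 and Foxd1, from 0.348 down to 0.0953. Foxa2, a pioneer factor of endoderm, rested on 3 cytosines and measured 0.865, 0.570, 0.614, 0.902 and 0.913 in the experimental line. Its control libraries lay between 0.195 and 1.00 with a median of 0.377, and the highest of them was that of day 12. Its adjusted p was 0.542 with all libraries and 0.0346 without control day 12 (limma). Pitx1, a hindlimb factor, measured 0.261, 0.350, 0.264, 0.221 and 0.285 on days 5 to 20, with control libraries between 0.0427 and 0.291 with a median of 0.135, and the control library of day 12 lay within the experimental range (adjusted p = 0.156 by limma). After Sox2, the largest decreases were those of Nkx2-5, Pax7, Pax6, Lhx1 and Pax3, and none of these passed by limma, with Lhx1 at an unadjusted p under 0.05 and the others above it. Nkx2-5, a heart factor, measured 0.669, 0.774, 0.575, 0.403 and 0.577 with control libraries between 0.576 and 0.892 with a median of 0.643. Pax7, the muscle stem cell factor, measured 0.0888, 0.133, 0.111, 0.151 and 0.130 with control libraries between 0.0821 and 0.323 with a median of 0.175. In both the groups overlapped. For Pax6, the eye field factor, the values were 0.128, 0.0624, 0.147, 0.189 and 0.305 with control libraries between 0.172 and 0.297 with a median of 0.205, and for Pax3, a neural crest and muscle factor, 0.144, 0.114, 0.101, 0.108 and 0.0348 with control libraries between 0.0571 and 0.281 with a median of 0.133. These also overlapped.

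Member promoters with a mean over 0.5 in either line were Tbx18, Gata4, Foxa2, Tbx4, Nkx2-5 and Sox2. These 6 are 13.3% of the 45, and the share among all promoters was 14.7%. Tbx18, a factor of the epicardium, measured 0.947, 0.911, 0.907, 0.805 and 0.732 on days 5 to 20 over 3 cytosines, with control libraries between 0.815 and 1.00 with a median of 0.861. Tbx4, a hindlimb and lung factor, measured 0.644, 0.910, 0.824, 0.610 and 0.558 over 13 cytosines, with control libraries between 0.574 and 0.783 with a median of 0.677. The libraries of the lines overlapped in both promoters. At the other end, 27 member promoters (60%) stayed under 0.2 in both lines, against 75.0% of all promoters, and Foxf1, Irx5, Meis1, Meis2, Msx2, Dlx6, Sox9 and Gata6 stayed under 0.05 in both. Between these levels lay Irx3, a patterning factor with 0.288 ± 0.0199 and 0.285 ± 0.0126 over 43 cytosines, Six2 with 0.241 ± 0.0454 and 0.226 ± 0.144 over 36, and Gsc, the Spemann organizer factor, with 0.375 ± 0.149 and 0.408 ± 0.0589 over 17. Sox17, an endoderm factor, and Tbx2, Tbx5 and Tbx1 stood at 0.237, 0.230, 0.285 and 0.397 in the control line and at 0.264, 0.253, 0.364 and 0.376 in the experimental line. None of these passed the test.

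Gene bodies carried more of the differences. Of the 57 member bodies, Sox9, Foxc1, Six2, Meis1, Lhx1 and Pax1 were higher and Gata6, Msx1, Gata2, Sall1, Runx3 and Nkx2-1 were lower in the experimental line (limma on M-values, adjusted p under 0.05 over 16042 gene bodies). The 12 are 21.1% of the members, and over all gene bodies 4.66% passed, 3.38% as higher and 1.28% as lower. The members had a median of 37 cytosines per body and all gene bodies had 11, so the sets differ in how precisely they were measured. Libraries did not overlap for 9 higher and 7 lower member bodies, where all gene bodies gave 4.42% and 1.91%. An unadjusted p under 0.05 was reached by 26 member bodies and by 20.5% of all gene bodies. The median difference was 0.0144 over the members and 0.00751 over all gene bodies. Foxc1 was the only member called in both its promoter and its body. With beta values in place of M-values the bodies of Foxc1 and Nkx2-1 lost their calls, and so did Nkx2-1 and Pax1 when cytosines within 2000 bp of the start were left out.

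**Figure D4:**
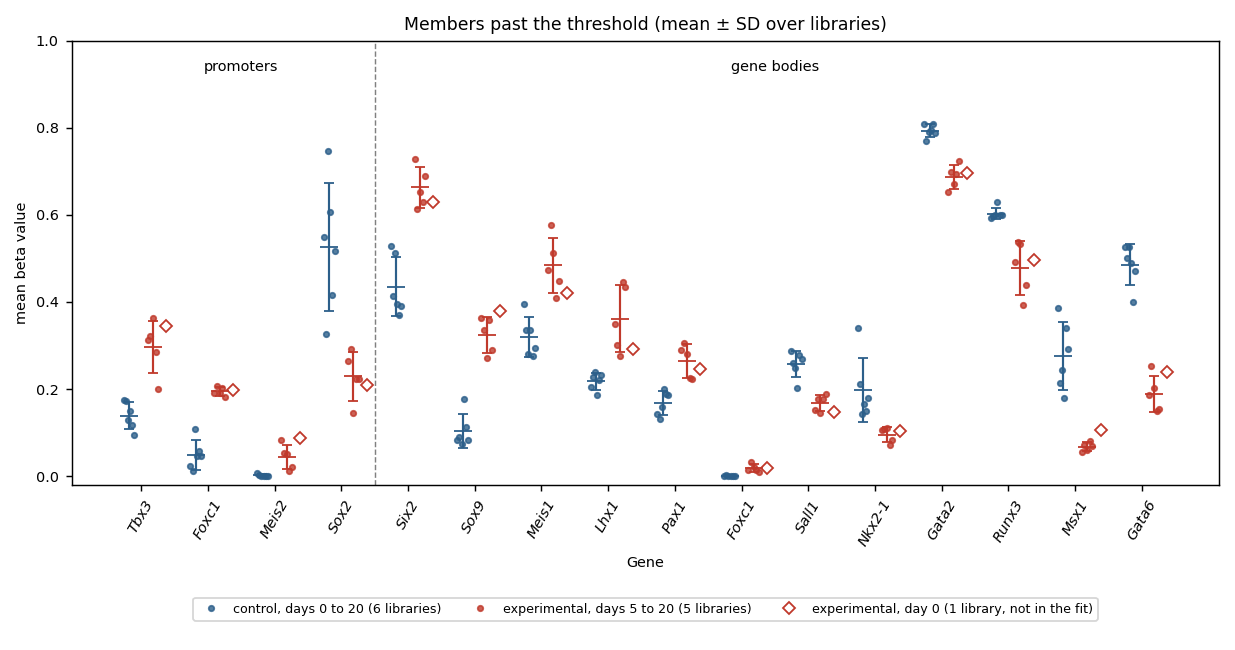
Mean beta value of the 4 promoters and 12 gene bodies past the threshold, with points for single libraries and bars for the mean ± SD of the control (6 libraries) and experimental (5 libraries) series, and open diamonds for experimental day 0. In each of the 16 the diamond lies outside the control points and on the side of the experimental series.

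Gata6, an endoderm and heart factor on chromosome 18, had the smallest p of the 57 bodies. Its 66 body cytosines averaged 0.186, 0.252, 0.203, 0.149 and 0.154 on days 5 to 20 of the experimental line and 0.238 on day 0, and the control libraries lay between 0.400 and 0.527 with a median of 0.495. The highest experimental value was well under the lowest control value, with 0.189 ± 0.0419 (SD, n = 5) against 0.486 ± 0.0471 (SD, n = 6; M difference -1.99 ± 0.19 (SE), adjusted p = 0.00129 by limma). At 1210 to 1331 bp from the start the experimental and control means were 0.0248 and 0.440, at 2297 to 2423 bp they were 0.202 and 0.570, and at 6624 to 6787 bp they were 0.425 and 0.838. Farther out Gata6 had single cytosines at 12049, 12087 and 31010 bp, with 0.314, 0.631 and 0.707 in the experimental and 0.837, 0.923 and 0.905 in the control line, so most of its measured cytosines lie toward the 5′ end. The promoter of Gata6 was bare in both lines (0.0154 ± 0.0103 and 0.0224 ± 0.0236).

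Gata2, a blood and endothelial factor on chromosome 6, was lower in a body that was highly methylated in both lines, at 0.652, 0.698, 0.671, 0.694 and 0.724 on days 5 to 20 with controls between 0.769 and 0.810 with a median of 0.793. The groups did not overlap (0.688 ± 0.0277 and 0.793 ± 0.0151, SD, n = 5 and 6; M difference -0.77 ± 0.11 (SE), adjusted p = 0.00674 by limma). Gata3, a T cell and sympathetic lineage factor, had 0.736 ± 0.0316 against 0.789 ± 0.0192 and did not pass (adjusted p = 0.113 by limma). Gata4 and Gata5 bodies did not pass either, at 0.440 ± 0.0415 against 0.415 ± 0.0395 and 0.364 ± 0.0906 against 0.257 ± 0.0513. Thus 2 of the 5 GATA bodies were called, both lower.

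Sox9, the cartilage factor, lies on chromosome 11 and had the largest increase in M-value among the called bodies. Its 32 cytosines averaged 0.364, 0.336, 0.271, 0.359 and 0.291 on days 5 to 20 and 0.380 on day 0, and the control libraries lay between 0.0738 and 0.177 with a median of 0.0866. The highest control library, that of day 12, stayed under the lowest experimental one (0.324 ± 0.0414 and 0.103 ± 0.0386, SD, n = 5 and 6; M difference 2.01 ± 0.24 (SE), adjusted p = 0.00329 by limma). The run of 8 cytosines at 3184 to 3254 bp, toward the end of the gene, measured 0.772 ± 0.0828 and 0.267 ± 0.121, while all cytosines within 250 bp of the start were near 0. The Sox2, Sox10, Sox1 and Sox17 bodies did not pass, at 0.103 against 0.225, 0.369 against 0.497, 0.101 against 0.0801 and 0.133 against 0.118 in the experimental and control lines.

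Msx1, a limb and tooth factor on chromosome 5, had the largest decrease in M-value. Its 15 body cytosines averaged 0.0561, 0.0711, 0.0595, 0.0810 and 0.0703 on days 5 to 20 and 0.106 on day 0, with control libraries between 0.180 and 0.386 with a median of 0.268. The groups were apart (0.0676 ± 0.00997 and 0.276 ± 0.0783, SD, n = 5 and 6; M difference -2.21 ± 0.26 (SE), adjusted p = 0.00300 by limma). Its promoter differed little, at 0.141 ± 0.0146 and 0.127 ± 0.0146 (adjusted p = 0.552 by limma). Msx2, Dlx5 and Dlx6, of the same homeobox class, did not pass in the body, with differences from -0.0214 to 0.0307.

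Six2, the nephron progenitor factor on chromosome 17, had body values of 0.729, 0.612, 0.652, 0.631 and 0.690 on days 5 to 20 and 0.629 on day 0, above control libraries between 0.371 and 0.528 with a median of 0.404 (0.663 ± 0.0471 and 0.435 ± 0.0674, SD, n = 5 and 6; M difference 1.34 ± 0.21 (SE), adjusted p = 0.00915 by limma). Among its runs, that at 2975 to 3129 bp measured 0.639 and 0.357. Six3, a forebrain factor, did not pass as a whole (0.218 and 0.233), but its body held runs of either direction: 0.304 against 0.577 at 1177 to 1333 bp and 0.801 against 0.506 at 4432 to 4498 bp. Meis1, the second TALE factor, measured 0.475, 0.576, 0.512, 0.410 and 0.447 on days 5 to 20 and 0.422 on day 0, with control libraries between 0.277 and 0.395 with a median of 0.315. The groups did not overlap (0.484 ± 0.0636 and 0.320 ± 0.0452, SD, n = 5 and 6; M difference 0.98 ± 0.20 (SE), adjusted p = 0.0229 by limma). The call on Meis1 was lost without experimental day 5, experimental day 12 or control day 20 (highest adjusted p = 0.0591 by limma).

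In Lhx1, on chromosome 11, the body values were 0.349, 0.302, 0.276, 0.447 and 0.434 on days 5 to 20 and 0.292 on day 0, with control libraries between 0.186 and 0.239 with a median of 0.224. All experimental values were higher (0.362 ± 0.0769 and 0.218 ± 0.0196, SD, n = 5 and 6; M difference 0.98 ± 0.20 (SE), adjusted p = 0.0261 by limma), while the promoter of Lhx1 was lower without passing. The 14 cytosines at 3207 to 3719 bp measured 0.634 ± 0.0838 and 0.312 ± 0.0661. Pax1, a factor of the sclerotome and thymus on chromosome 2, had 0.289, 0.305, 0.281, 0.225 and 0.223 on days 5 to 20 and 0.247 on day 0, with control libraries between 0.131 and 0.201 with a median of 0.172 (0.265 ± 0.0382 and 0.168 ± 0.0280, SD, n = 5 and 6; M difference 0.81 ± 0.17 (SE), adjusted p = 0.0299 by limma). Lhx1 lost its call without experimental day 5, experimental day 20 or control day 0, and Pax1 without experimental day 5, 9 or 12 or control day 0, 5 or 9 (highest adjusted p by limma 0.0549 and 0.0703).

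Sall1, a zinc finger repressor of kidney and limb on chromosome 8, had body values of 0.151, 0.176, 0.144, 0.177 and 0.189 on days 5 to 20 and 0.147 on day 0 over 124 cytosines, and control libraries between 0.202 and 0.287 with a median of 0.265. The experimental line was lower with no overlap (0.167 ± 0.0189 and 0.258 ± 0.0304, SD, n = 5 and 6; M difference -0.75 ± 0.14 (SE), adjusted p = 0.0188 by limma). This body holds downstream Sall1 starts at positions 89043512 and 89042862, because the first start was used. Within 250 bp of 89043512, partly in the promoter window, the experimental and control means were 0.0215 and 0.0820 over 33 cytosines. Around 89042862 they were 0.0405 and 0.0930 over 22. The libraries of the lines overlapped at both starts. A run of 7 cytosines at 2901 to 2946 bp had the largest difference of all 281 member runs, with 0.0179, 0, 0, 0.214 and 0.305 on days 5 to 20 and control values between 0.571 and 0.857 with a median of 0.781. Sall3 and Sall4 did not pass (0.308 against 0.293 and 0.323 against 0.312). The body of Foxc1 was called with a small difference near 0: its 55 cytosines averaged 0.0142, 0.0327, 0.0210, 0.0144 and 0.0104 on days 5 to 20 and 0.0190 on day 0, with control libraries between 0 and 0.00165 with a median of 0.000506. The means were 0.0185 ± 0.00879 against 0.000578 ± 0.000573 (SD, n = 5 and 6; M difference 1.41 ± 0.18 (SE), adjusted p = 0.00417 by limma). In the other forkhead genes the bodies did not pass, from -0.143 in Foxf1 to 0.136 in Foxa2.

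Runx3, a Runt factor of T cells and sensory neurons on chromosome 4, measured 0.491, 0.537, 0.532, 0.393 and 0.440 on days 5 to 20 and 0.497 on day 0 over 130 cytosines, with control libraries between 0.593 and 0.629 with a median of 0.599. The experimental libraries were all lower (0.479 ± 0.0619 and 0.603 ± 0.0131, SD, n = 5 and 6; M difference -0.71 ± 0.16 (SE), adjusted p = 0.0310 by limma). The downstream start printed above stayed low in both lines, and cytosines 34687 to 34974 bp from the first start measured 0.630 and 0.914. Runx1, the blood factor, did not pass as a whole (0.586 and 0.612). Its run of 9 cytosines at 127512 to 127753 bp from the first start had 0.313 ± 0.0742 against 0.754 ± 0.0558. That run begins at position 92698562 and lies before a downstream Runx1 start at position 92697329 (- strand). It falls within the promoter window of that downstream start, as windows were defined above. The run was counted as gene body because the first start was used. Nkx2-1, the lung and thyroid factor on chromosome 12, had 0.106, 0.108, 0.109, 0.0720 and 0.0824 on days 5 to 20 and 0.104 on day 0, with control libraries between 0.142 and 0.340 with a median of 0.173 (0.0955 ± 0.0171 and 0.198 ± 0.0738, SD, n = 5 and 6; M difference -1.11 ± 0.27 (SE), adjusted p = 0.0479 by limma). Runx3 lost its call without experimental day 5 or 20 or without control day 0, 5, 9, 16 or 20, and Nkx2-1 kept it only in the fit without control day 0 (highest adjusted p by limma 0.0636 and 0.101).

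By limma 0 of the 7 T-box bodies passed, and Tbx3, Tbx1 and Tbx18 had an unadjusted p under 0.05. Tbx3 measured 0.326, 0.447, 0.385, 0.351 and 0.354 on days 5 to 20, with control libraries between 0.104 and 0.321 with a median of 0.183, and the lines did not overlap (adjusted p = 0.0634 by limma). Tbx1, a factor of the pharyngeal arches, had 0.460 ± 0.110 against 0.331 ± 0.0311, and its experimental libraries ranged from 0.354 to 0.621. The bodies of Tbx18, Tbx15, Tbx2, Tbx4 and Tbx5 differed by -0.0498 to 0.0532. Among the 8 Pax bodies Pax1 alone was called. Pax7 had 0.244 ± 0.0104 against 0.192 ± 0.0211 over 135 cytosines (adjusted p = 0.0555 by limma). Pax9, a pharyngeal and tooth factor, measured 0.422, 0.349, 0.393, 0.328 and 0.190 with control libraries between 0.428 and 0.520 with a median of 0.481 (adjusted p = 0.0861 by limma). In Pax7 and Pax9 the libraries of the lines did not overlap. Pax6, Pax5, Pax2 and Pax3 differed by 0.00488 to 0.0588, and Pax8, the thyroid and kidney factor, stood at 0.727 against 0.760.

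The remaining bodies did not pass by limma. Foxf1, a factor of lung and gut mesenchyme, had the third largest decrease in beta value, with 0.465, 0.432, 0.639, 0.596 and 0.457 on days 5 to 20 over 9 cytosines and control libraries between 0.590 and 0.778 with a median of 0.659, so that the groups overlapped (adjusted p = 0.117 by limma). Lhx2 and Lhx9, LIM factors of forebrain and gonad, differed by 0.0693 and -0.102, and Isl1, a motor neuron factor, stood at 0.166 ± 0.173 against 0.0213 ± 0.0302 over 4 cytosines. Nkx2-2, Nkx2-5 and Nkx6-1 differed by -0.00559 to 0.00454. Foxd1 had 0.0549 ± 0.0400 against 0.00438 ± 0.00474 (adjusted p = 0.0578 by limma), and Meis2 had 0.385 against 0.354 in its body, although its promoter was called. The Iroquois and paired-like bodies differed by -0.0984 in Irx5 to 0.0144 in Gsc, and Pitx1 alone among these 5 had an unadjusted p under 0.05.

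Within the genes, neighbouring cytosines up to 200 bp apart were joined into runs of 5 or more, which gave 281 runs in 55 members. The libraries did not overlap in 22 runs that were higher and 19 that were lower in the experimental line. Over the 35492 such runs of all autosomes the shares were 3.54% and 1.78%, and 1.15% differed by over 0.3, against 16 of the 281 (8 in each direction). The runs are described with no test. Foxa2 at 2971 to 3007 bp had 0.658, 0.724, 0.640, 0.896 and 0.956 on days 5 to 20, 0.650 on experimental day 0, and control values between 0 and 0.384 with a median of 0.282. Tbx5, a heart and forelimb factor whose body was not called (0.246 and 0.217), had a run at 7099 to 7147 bp with 0.832, 0.800, 0.780, 0.254 and 0.688 against control values between 0 and 0.231 with a median of 0.102. It also held a run of 13 cytosines at 42711 to 43061 bp that was lower, at 0.0705 against 0.326. Pax7 was the other gene with separated runs in both directions, at 0.434 against 0.0899 from 9279 to 9306 bp and at 0.0332 against 0.0777 from 588 to 752 bp.

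**Figure D5:**
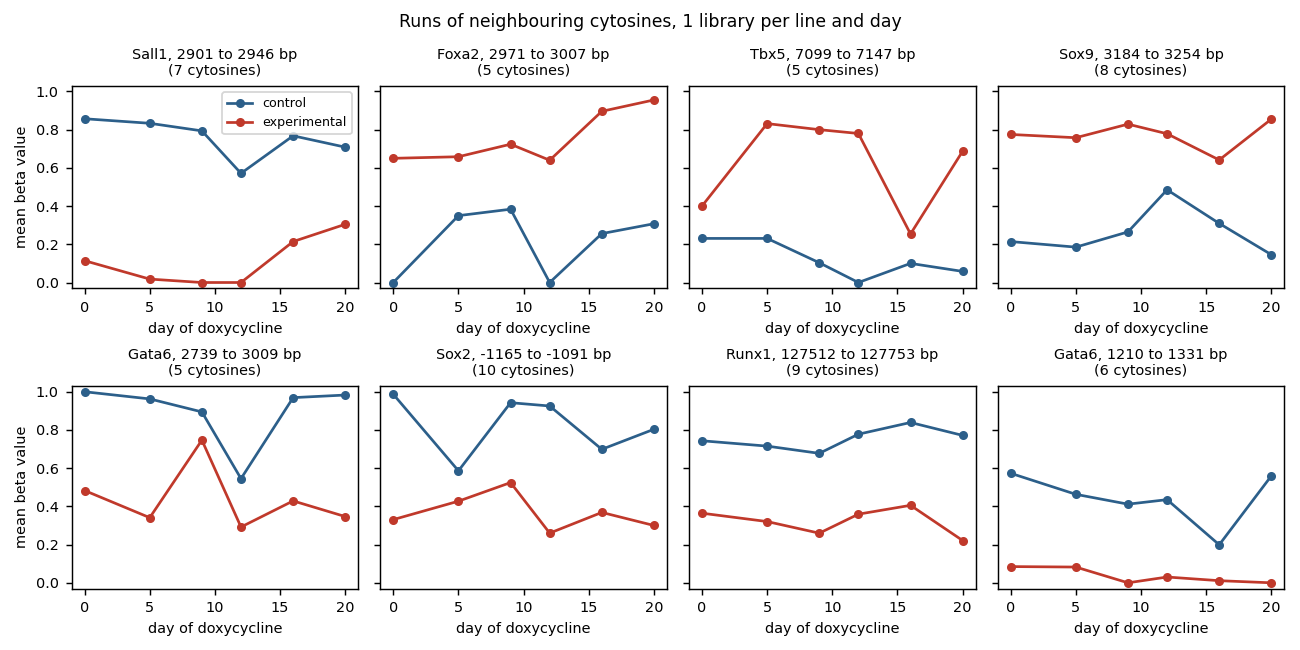
Mean beta value of the 8 member runs with the largest absolute difference against day of doxycycline, 1 library per point, with distances from the start site in each title. The lines are apart on day 0 in every panel, and in Tbx5 the experimental line dips on day 16 to 0.254, close to the control range.

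Of the 4085 member cytosines listed in all libraries, 3800 varied and were tested. By limma 48 passed (1.26%, against 0.615% of 508351 autosomal cytosines). Of these 19 were higher and 29 lower (0.5% and 0.763% of the member cytosines, against 0.335% and 0.279% of all). They lie in 23 genes, 6 in promoters and 42 in gene bodies. Among the 19 higher ones, 16 had a control mean under 0.05, and among the 29 lower ones, 19 had a control mean over 0.95. Of all 3800 tested member cytosines, 26.5% had a control mean under 0.05 and 5.87% had one over 0.95. A higher call needs room above the control mean and a lower call needs room below it. The shares among called cytosines thus depend partly on the direction of the call, and they were not computed for all called cytosines. The largest decreases were at Sall1 positions 89041222 (0.917 to 0) and 89041256 (0.972 to 0.133) and at Runx3 position 135156008 (0.956 to 0.0417), given as control and experimental means. The largest increases were at Sox9 position 112785394 (0.299 to 0.944) and Tbx5 positions 119803630 (0.00595 to 0.646) and 119803637 (0.00298 to 0.639). With no read counts, the number of reads behind any single cytosine is unknown.

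The experimental day 0 library, which entered none of these fits, shows the experimental line before doxycycline. In all 16 called promoters and bodies of the members it lay outside the control range and nearer to the experimental mean than to the control mean. Among all called features it lay outside the control range in 89.7% of promoters and 88.5% of gene bodies. It lay nearer to the experimental mean in 84.3% and 86.5% of them. In Sox9, for instance, the body stood at 0.380 in the experimental and 0.0826 in the control line on day 0, and in Gata6 at 0.238 and 0.527. Of the 48 called member cytosines, 29 (60.4%) were nearer to the experimental mean on experimental day 0. The same share was not computed over all called cytosines, so 60.4% cannot be called particular to the members. Pitx1 position 55837149 was nearer to the control mean: it measured 0.0256 on experimental day 0, 0.320 ± 0.0955 (SD, n = 5) on days 5 to 20 and 0 in all control libraries.

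The change from day 0 was therefore compared between the lines in a fit of all 12 libraries. By limma 0 of the 45 member promoters and 0 of the 57 member bodies passed, and 34 of 14150 promoters (0.24%, made up of 0.12% upward and 0.12% downward) and 5 of 16042 gene bodies (0.0312%, made up of 0.00623% upward and 0.0249% downward) did over the whole series. An unadjusted p under 0.05 was reached by the promoters of Gata6 and Gata5 and the bodies of Lhx3 and Nkx2-1, which is 2 of 45 and 2 of 57, where all promoters and gene bodies gave 6.58% and 4.66%. The Gata6 promoter went from 0.00349 on day 0 to 0.0154 ± 0.0103 in the experimental line, and the control line from 0.0658 on day 0 to values of 0.00427 to 0.0317 afterward (adjusted p = 0.610 by limma). The Gata5 promoter stood at 0.218 on day 0 and 0.201 ± 0.0313 later in the experimental line, and at 0.0952 on control day 0, the lowest control library (adjusted p = 0.739 by limma). In the Lhx3 body the experimental line went from 0.160 to 0.116 ± 0.0302 and the control line from 0.0742 to between 0.160 and 0.183 (adjusted p = 0.665 by limma). The Nkx2-1 body went from 0.104 to 0.0955 ± 0.0171 in the experimental line, and the control line from 0.340 to between 0.142 and 0.211 (adjusted p = 0.877 by limma). With a single day 0 library per line, the contrast rests on those 2 libraries.

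The contrast was largest upward in the promoters of Pax9, Nkx6-1 and Gata6 and downward in Otx2, Pitx1 and Meis1, and none of these passed by limma. Pax9, a pharyngeal and tooth factor measured at 4 cytosines, was at 0 in the experimental line on days 0, 5, 9 and 12 and at 0.114 and 0.250 on days 16 and 20, while the control line had 0.0312 on day 0 and stayed at 0 on days 5 to 20 (change in M 3.87 ± 2.52 (SE), adjusted p = 0.95 by limma). Nkx6-1, a pancreas and motor neuron factor, had 0.0236 on day 0 and 0.0501, 0.0371, 0.0586, 0.126 and 0.0644 on days 5 to 20 in the experimental line, while the control line had 0.124 on day 0 and a median of 0.0426 over its 6 libraries (adjusted p = 0.867 by limma). Otx2, a forebrain factor, rested on 3 cytosines and measured 0.153 on day 0 and 0.216, 0, 0.491, 0.281 and 0.0123 on days 5 to 20 in the experimental line, with control libraries between 0 and 0.326 with a median of 0.206 (adjusted p = 0.969 by limma). In Pitx1 the control line started low on day 0, at 0.0427, and had a median of 0.135 over its 6 libraries, while the experimental line went from 0.214 to 0.276 ± 0.0472. The Gata6 promoter measured 0.00349 on day 0 and 0.00905, 0.00108, 0.0235, 0.0178 and 0.0256 on days 5 to 20, with control libraries between 0.00427 and 0.0658 with a median of 0.0139, of which that of day 0 was the highest. In Meis1 the values were 0.0518 on day 0 and 0.0431, 0.0324, 0.0272, 0.0358 and 0.0130 on days 5 to 20, and the control libraries lay between 0.00940 and 0.0768 with a median of 0.0218.

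Of 83 relatives from the same families that are not members, 76 bodies were measured and 8 passed, 2 higher and 6 lower (10.5%). Among them Foxl1, a forkhead factor of gut mesenchyme, stood at 0.490 ± 0.0833 against 0.866 ± 0.0786 and Dlx2, of forebrain, at 0.177 ± 0.0661 against 0.436 ± 0.0400 (SD, n = 5 and 6; adjusted p = 0.00719 and 0.00462 by limma). On day 0 the lines stood close together at Foxl1, at 0.717 in the experimental and 0.731 in the control line, and its change from day 0 had an unadjusted p of 0.00603 and an adjusted p of 0.628 by limma. At Foxl1 the experimental day 0 library was thus nearer to the control mean. It was nearer to the experimental mean in 6 of the 8 called relatives' bodies and in all 16 called member promoters and bodies. Over all features this held for 84.3% of called promoters and 86.5% of called bodies. Of the relatives' 63 promoters Pbx4 and Six5 passed, both higher (3.17%), and at Six5 experimental day 0 was nearer to the control mean. The 30 Polycomb genes, whose products hold developmental genes repressed, gave 0 of 28 promoters by limma, with 2 at an unadjusted p under 0.05, and 1 of 27 bodies, that of Cbx6 (0.901 ± 0.0291 against 0.795 ± 0.0305). The median number of cytosines per body was 37 for the members, 24.5 for the relatives and 19 for the Polycomb genes. The shares of called bodies in these lists were 21.1%, 10.5% and 3.70%. All gene bodies had a median of 11 cytosines and 4.66% called, above the Polycomb share. These shares were not tested against each other.

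The labelled cell type could be read only from methylation. Of 12 fibroblast markers 8 promoters were measured, with 0 called by limma and 1 at an unadjusted p under 0.05. Fn1, Vim, Pdgfrb and Col5a1, which encode matrix, filament and receptor proteins of fibroblasts, had bare promoters, at 0.0192 or less in both lines, whereas the promoters of Col1a2 and Fap were methylated (control means 0.867 and 0.894). Prrx1, a mesenchymal homeobox gene, had a promoter at 0.185 ± 0.181 in the experimental and 0.627 ± 0.260 in the control line (adjusted p = 0.126 by limma) and a called body, higher in the experimental line, that was near 0 in the control line. Among the 3 chromaffin promoters measured, Chga was called as higher (0.278 ± 0.0616 against 0.0890 ± 0.0419), and among 5 epithelial bodies Cdh1 was (0.819 ± 0.00398 against 0.763 ± 0.01). None of 2 epithelial promoters and 3 blood marker bodies passed or had an unadjusted p under 0.05. The part of these differences in the members' values was not tested.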

How the data were processed

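RRBS had been run on 12 libraries, 1 for each day of either line. Per the labels, the authors aligned reads with Bismark to mm10 (version not given in the sources used here) and deposited the percent of methylated reads at each CpG cytosine, without read counts. Percent was divided by 100 to give beta values, and cytosines listed in all 12 libraries were kept. Autosomal promoters (1500 bp before to 500 bp after the start) and gene bodies with 3 or more such cytosines were averaged. Starts were the most upstream start with a RefSeq promoter sequence (GRCm38.p6) for 40 members and the end of the gene span for 17. A gene body was the gene span without the promoter window. It can thus hold downstream starts and, as at Gata3 with a cytosine at -4702 bp, DNA before the start used. M-values, with 0.01 added to both shares, were fitted with limma 3.58.1 in R 4.3.3 over all autosomal features, and p-values were adjusted by Benjamini-Hochberg (threshold 0.05). The change from day 0 was a contrast in a fit of all 12 libraries. Tables were made with Python 3.11.15 and pandas 2.3.3. The script was tested on simulated data: of 200 promoters shifted by 2 in M-value, 60% were recovered, and of 200 gene bodies 66%. In these runs 10 unshifted promoters and 12 unshifted gene bodies also passed. Shifts between 0 and 2, where many called members lie, were not simulated. The labels name no separate cultures, so p-values measure the spread between successive harvests of 1 line.

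Groups came from the labels. Members and gene lists were chosen with earlier results of these data known. Values of each experimental library of days 5 to 20, with the lowest, median and highest control library, were given for members past a threshold, the 6 largest promoter increases and decreases, the 4 largest in gene bodies, promoters over 0.5, and the 3 largest change contrasts in each direction. For cytosines the 3 largest called changes in each direction were named. Runs, called promoter cytosines and other genes named beside them were chosen after their values were seen. The alternatives were an offset of 0.05, beta values in place of M-values, 5 or more cytosines, omission of constant cytosines, a window of 500 bp on each side, gene bodies without 2000 bp around the start, day as a block, and each library left out in turn. Starts at the end of the gene span were added after the data were seen. Sex chromosomes were not analysed here.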

Additional observations from a re-analysis of the deposited data

Results flagged for a closer look

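In 4 of 32 groups of libraries at called members, 1 library stood further from the others than Dixon's criterion allows, where chance gives about 1 group in 20. The control day 0 library was the highest of its line at the Meis2 promoter (0.00821, where the others lay at or near 0). At the Foxc1 gene body the control day 5 library was highest, at 0.00165. In the Nkx2-1 gene body the control day 0 library measured 0.340, and the call on this body held only in the fit without it among those that left out 1 library. In the Runx3 gene body the control day 12 library was highest, at 0.629.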

How the results depend on the processing

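The 16 called promoters and bodies kept their direction under every alternative that gave a value for them. Foxc1 and Meis2 promoters and the Gata6, Msx1, Sox9, Foxc1, Gata2, Six2 and Sall1 bodies kept their calls with any 1 library left out. Leaving out 1 library gave 2 to 8 called member promoters, 7 to 14 bodies and 37 to 55 cytosines, where all 12 libraries without experimental day 0 gave 4, 12 and 48. The 2 came without experimental day 5 or day 12, the 8 without control day 12, the 7 without experimental day 5 and the 14 without control day 12. Over all features the same fits gave 197 to 363 promoters, 369 to 771 bodies and 2240 to 3741 cytosines, and the change fits gave 23 to 49 promoters and 4 to 9 bodies. A window of 500 bp on each side of the start gave 1 member promoter, that of Meis2, and 223 promoters in all. With the start at the end of the gene span, an alternative chosen after seeing the data, 3 member promoters were called and Meis2 was not. With an offset of 0.05, cytosine calls were 77 among members and 5275 in all, and with beta values 85 and 5954. The change fit called 66 promoters with the larger offset, 109 with beta values and 1 without constant cytosines, and 3 gene bodies at 5 or more cytosines, and in each of these it called 0 members. The cause of these shifts was not tested. With day as a replicate block, limma called 0 member promoters of 8 in all, 2 member bodies of 47 and 0 cytosines, with 2276 promoters and 55630 cytosines at an unadjusted p under 0.05. Same-day libraries deviated together with a correlation of only -0.0338 to 0.0153 over 5 days. The block fit also left out control day 0, and why calls were lost in it was not tested. Depth per cytosine is unknown, and 3 cytosines carry a promoter value at Foxa2, Gata4, Tbx18 and Otx2.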

Other observations

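Several called cytosines lay in genes whose promoter and body means were not called. In Pax2, a kidney and midbrain factor, positions 44755825, 44758954 and 44835634 on chromosome 19 went from a control mean of 0, 0 and 0.00803 to 0.122, 0.153 and 0.354 in the experimental line (adjusted p = 0.00597, 0.00297 and 0.0380 by limma). On experimental day 0 they measured 0, 0 and 0.167. Position 44755825 lies just after a downstream Pax2 start at position 44755752 and was counted as gene body. Gata4 held 2 such cytosines on chromosome 14, at positions 63251612 and 63240816, with control means of 0 and 0.00725 and experimental means of 0.486 and 0.436 (adjusted p = 0.000621 and 0.00897 by limma). Their values on experimental day 0 were 0.171 and 0.0909. In Pax6, position 105676456 on chromosome 2 was at 0 in every control library and at 0.261 in the experimental line (adjusted p = 0.000701 by limma), with 0.0882 on experimental day 0. Irx5 position 92356941 on chromosome 8, in the promoter, measured 0.105 on experimental day 0, 0.629 on days 5 to 20 and 0.0185 in the control line (adjusted p = 0.0455 by limma). Nkx2-2 position 147185734 on chromosome 2 fell the other way, from 0.455 to 0.0125 (adjusted p = 0.00470 by limma), with 0 on experimental day 0. These cytosines were chosen after their values were seen, and the reads behind each are unknown.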
